A study of Mus musculus with 37 samples.

Results

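The MHC class II genes were followed in the lungs of A/J and C57BL/6J (B6) mice over the last days of gestation and at birth. The set comprised 7 genes, taken by name: the chain genes H2-Aa, H2-Ab1 and H2-Eb1, the peptide loading genes H2-DMa and H2-DMb1, the invariant chain gene Cd74 and the co-activator gene Ciita. Each was read from a probe set that carried its symbol alone, and 6 of the 7 had such a probe set, 1 each, among the 21789 probe sets with 1 symbol out of 35556 in all. The only probe set for H2-DMb1 also carried the symbol of its neighbor H2-DMb2, so H2-DMb1 has no values here.

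Total RNA of the whole right lung was hybridized to Mouse Gene 1.0 ST arrays. Lungs of the A/J strain were taken daily from E15.5 to E20.5 and on the day of birth (PN0), and those of the B6 strain, which has the shorter gestation, daily from E15.5 to E18.5 and at PN0. All mice were untreated inbred animals, and each of the 3 replicates of the 12 groups pooled the lungs of 3 male littermates, so a replicate stands for a litter. An extra array of B6 at E18.5, numbered 2b, was averaged with array 2 because of its number, which gave 36 replicates from 37 arrays. The labels do not say whether 2b came from the same litter. A/J PN0 followed E20.5 by a few hours, whereas B6 PN0 followed E18.5 by a day. The array medians ran from 6.34 to 6.54 on the log2 scale, and the number of arrays limits the precision. In 3 libraries the mean signal of 5 liver markers stood apart, at 9.24 in B6 E15.5 replicate 1, 8.03 in B6 E16.5 replicate 1 and 7.90 in A/J E15.5 replicate 1, against 5.52 to 7.14 in the others. A/J E15.5 replicate 1 was also the highest of all in 5 heart markers, at 9.92 against 7.61 and 7.67 in the other replicates of its group. With these 3 left out together, a run added after seeing the data, the members called were the same in each comparison recomputed.

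MHC class II molecules are pairs of an α and a β chain on the cell surface that show peptides from ingested proteins to helper T cells. H2-Aa and H2-Ab1 encode the chains of the I-A molecule, and H2-Eb1 encodes the β chain of I-E, whose α chain comes from H2-Ea. The invariant chain, CD74, guards the peptide groove during transport, H2-DM helps to load the peptide, and CIITA switches the whole set on by joining the RFX, CREB and NF-Y factors already bound to the promoters. In the lung, class II is carried by dendritic cells, B cells and macrophages, and also by alveolar type II epithelial cells. The H2 genes lie in the MHC on mouse chromosome 17, where A/J and B6 carry different haplotypes, whereas Cd74 and Ciita lie on other chromosomes. In whole-lung RNA, fewer cells of a type and less RNA per cell cannot be told apart.

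The promoters of the class II genes share the sites at which those factors bind, and the stretches of the 3 members for which both sites were found are shown to make that arrangement visible. Each runs from base -110 to base -41 before the RefSeq start site in the GRCm38.p6 build, with the X box core (CNNGNAAC) and the Y box (GATTGG) in capitals. H2-Aa is chr17:34287864-34287933 on the minus strand, H2-Eb1 is chr17:34305757-34305826 on the plus strand and H2-DMb1 is chr17:34153081-34153150 on the plus strand.
H2-Aa: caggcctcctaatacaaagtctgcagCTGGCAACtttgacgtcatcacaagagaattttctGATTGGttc
H2-Eb1: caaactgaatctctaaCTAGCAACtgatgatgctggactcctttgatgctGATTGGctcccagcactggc
H2-DMb1: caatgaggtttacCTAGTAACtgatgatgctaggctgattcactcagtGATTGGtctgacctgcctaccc
The X box core began at base -84 in H2-Aa, -94 in H2-Eb1 and -97 in H2-DMb1, and 27, 26 and 27 bases separated it from the Y box. Windows of 300 bases, 250 of them before the start, were present in the RefSeq table for 7 class II genes. The pair, on 1 strand and 15 to 40 bases apart, was found in 6 of them, which besides the genes shown were H2-Eb2, H2-Oa and H2-Ob. The exception was H2-DMa, whose 2 windows held no such pair. Across all 32851 windows, 0.338% held the pair, 39.1% held the X box core on either strand and 16.1% held the Y box on either strand. The letters and the spacing were chosen after these windows had been read, so the counts describe the windows and test nothing. No window was found in the table for H2-Ab1, Cd74 or Ciita.

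Between E15.5 and PN0, Cd74 and H2-Aa had the largest changes of the measured members and Ciita the smallest. Values are RMA signals on the log2 scale, a change is a difference of log2 signals, and a member was called where limma's moderated test gave a Benjamini-Hochberg adjusted p under 0.05 over all 21789 probe sets. Higher at PN0 than at E15.5 were 4 of 6 measured members in A/J (H2-Aa, H2-Ab1, H2-Eb1 and Cd74), against 25.2% of all probe sets. In B6 they were 5 of 6, the same with H2-DMa, against 24.4%. None was lower in either strain. The median change of the 6 members was 0.66 in A/J and 1.09 in B6, whereas the median over all probe sets was -0.04 and -0.003.

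**Figure D1:**
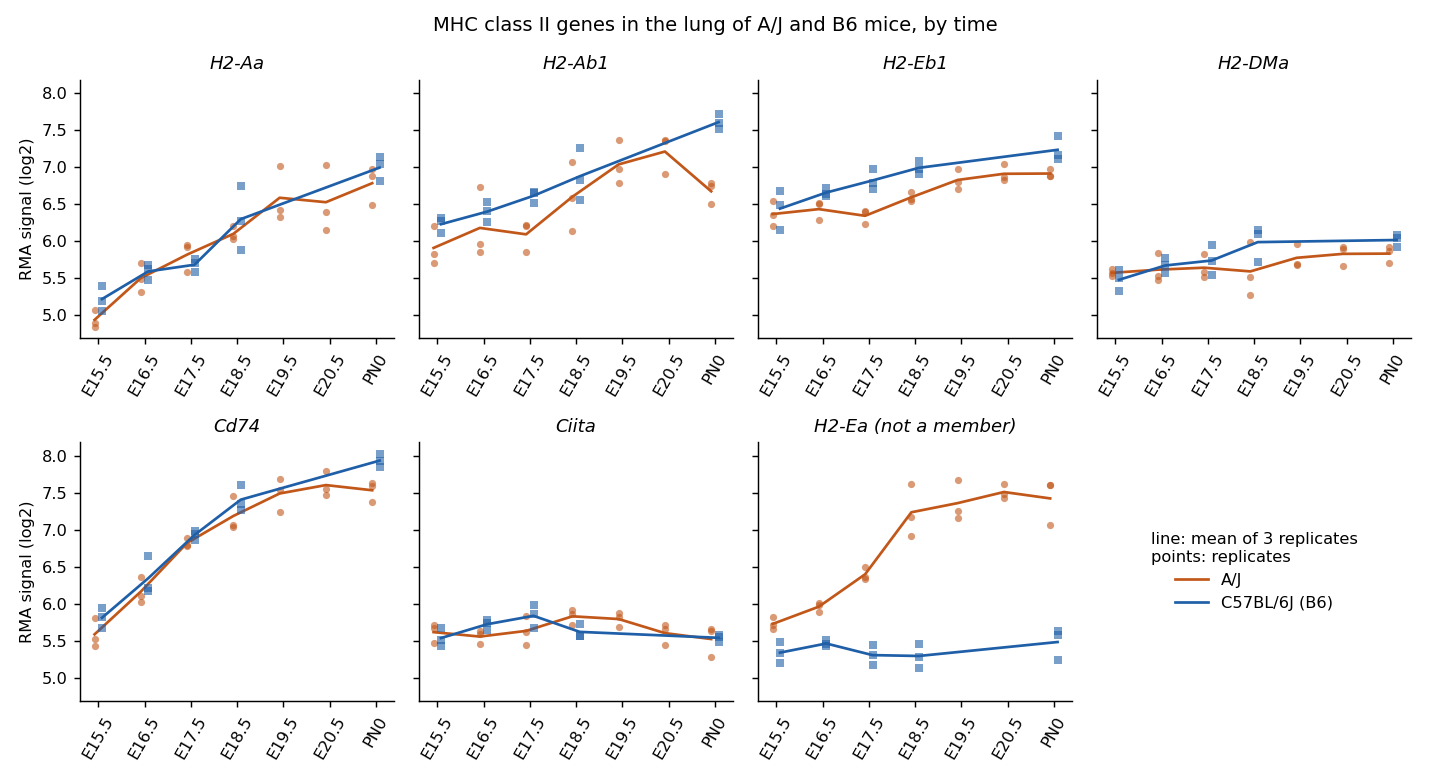
RMA signal on the log2 scale (y axis) against time (x axis, not to scale between E18.5 or E20.5 and PN0) in A/J (orange circles) and B6 (blue squares). Points are replicates of 3 pooled lungs and lines join the means of 3 replicates. B6 has no groups at E19.5 and E20.5. Cd74 and H2-Aa climb in both strains, Ciita stays between 5.29 and 5.98, and H2-Ea, which is no member, climbs in A/J and stays at or below 5.63 in B6.

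Cd74, the invariant chain, had the widest range of the members in both strains. In A/J its 3 replicates read 5.53, 5.81 and 5.43 at E15.5, and 7.38, 7.63 and 7.59 at PN0. In B6 they read 5.67, 5.95 and 5.82 at E15.5, and 8.02, 7.93 and 7.85 at PN0. The groups did not overlap, and the change was 1.94 ± 0.13 (SE) in A/J (adjusted p = 6.9e-14) and 2.12 ± 0.13 in B6 (adjusted p = 1.0e-14). Cd74 was also the first member to be called, although H2-Aa changed by almost as much in A/J at E16.5 (0.56, adjusted p = 0.072). The order of the calls is therefore not an order of onset. Cd74 rose between E15.5 and E16.5 by 0.58 in A/J and 0.53 in B6 (adjusted p = 0.0052 and 0.0054). It rose again at each of the following steps up to E18.5 in both strains. It was the only member called at E16.5, where 1 of 6 was higher in each strain, against 4.69% of all probe sets in A/J and 6.84% in B6. In A/J it went from 7.49 ± 0.23 (SD, n = 3) at E19.5 to 7.60 ± 0.17 at E20.5 and 7.53 ± 0.13 at PN0, and neither of these steps was called.

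H2-Aa, the α chain of I-A, rose in both strains by almost as much as Cd74. The A/J replicates read 4.90, 5.07 and 4.85 at E15.5, and 6.49, 6.98 and 6.88 at PN0. The B6 replicates read 5.20, 5.40 and 5.06 at E15.5, and 7.13, 7.04 and 6.81 at PN0. All PN0 values lay above all E15.5 values, and the change was 1.84 ± 0.19 (SE) in A/J and 1.77 ± 0.19 in B6 (adjusted p = 6.8e-10 and 1.5e-09). At E16.5 the difference from E15.5 was 0.56 in A/J (adjusted p = 0.072) and 0.37 in B6 (adjusted p = 0.22). Neither was called, although the replicates of the 2 times did not overlap in either strain. The rise was first called at E17.5 in A/J (0.88, adjusted p = 3.1e-04). In B6 it was first called at E18.5 (1.08, adjusted p = 1.5e-05), and at E17.5 the B6 difference from E15.5 was 0.46 (adjusted p = 0.051). Replicates at E19.5 in A/J ranged from 6.33 to 7.01, at E20.5 in A/J from 6.15 to 7.03 and at E18.5 in B6 from 5.89 to 6.74.

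H2-Ab1, the β chain of I-A, was higher at PN0 than at E15.5 in both strains. Its A/J replicates were 5.70, 6.20 and 5.83 at E15.5, reached 6.91, 7.35 and 7.37 at E20.5, and were 6.78, 6.74 and 6.50 at PN0. The B6 replicates were 6.31, 6.27 and 6.11 at E15.5, 6.82, 6.55 and 7.26 at E18.5, and 7.51, 7.72 and 7.59 at PN0. Hence H2-Ab1 was highest at E20.5 in A/J and at PN0 in B6, and the 3 PN0 values of A/J lay below the 3 values at E20.5. That step, -0.54 ± 0.21 (SE), was not called (adjusted p = 0.064). The change from E15.5 to PN0 was 0.76 ± 0.21 in A/J (adjusted p = 0.0022) and 1.38 ± 0.21 in B6 (adjusted p = 9.2e-07).

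H2-Eb1, the β chain of I-E, rose less, by 0.55 ± 0.11 in A/J and 0.79 ± 0.11 in B6 (adjusted p = 7.5e-05 and 2.2e-07). In A/J the replicates were 6.36, 6.20 and 6.54 at E15.5, 6.41, 6.23 and 6.39 at E17.5, and 6.88, 6.98 and 6.88 at PN0. In B6 they were 6.15, 6.68 and 6.49 at E15.5, 6.78, 6.98 and 6.70 at E17.5, and 7.11, 7.42 and 7.17 at PN0. The A/J level at E17.5 was thus still within the range at E15.5, whereas all B6 replicates at E17.5 lay above those at E15.5. The rise was first called at E17.5 in B6 (0.38, adjusted p = 0.0056) and at E19.5 in A/J (0.46, adjusted p = 6.1e-04).

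H2-DMa, the α chain of the peptide loading factor, was higher at PN0 in B6 by 0.54 ± 0.14 (SE, adjusted p = 0.0015). The B6 replicates were 5.33, 5.50 and 5.61 at E15.5, and 6.08, 6.05 and 5.92 at PN0. The difference in A/J was 0.26 ± 0.14 and was not called (adjusted p = 0.13), with 5.57, 5.62 and 5.53 at E15.5, and 5.71, 5.87 and 5.92 at PN0. In neither strain did the E15.5 and PN0 replicates overlap.

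Ciita, the co-activator, showed no called change from E15.5 to PN0. Its A/J replicates were 5.67, 5.48 and 5.71 at E15.5, and 5.29, 5.63 and 5.66 at PN0. Its B6 replicates were 5.43, 5.52 and 5.67 at E15.5, and 5.49, 5.58 and 5.56 at PN0. The difference was -0.09 in A/J (95% interval of the fit -0.31 to 0.12) and 0.003 in B6 (-0.21 to 0.22). The only called difference of Ciita from E15.5 was at E17.5 in B6, 0.30 (adjusted p = 0.022), where the lowest of the replicates (5.87, 5.98 and 5.67) equalled the highest at E15.5. The probe set of Ciita was among the dimmer ones, at the 36.8 percentile of the mean signal over the table, and that of H2-DMa at the 38.3 percentile. Those of H2-Aa, H2-Ab1, H2-Eb1 and Cd74 lay at the 43.1, 53.1, 54.5 and 57.3 percentiles.

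**Figure D2:**
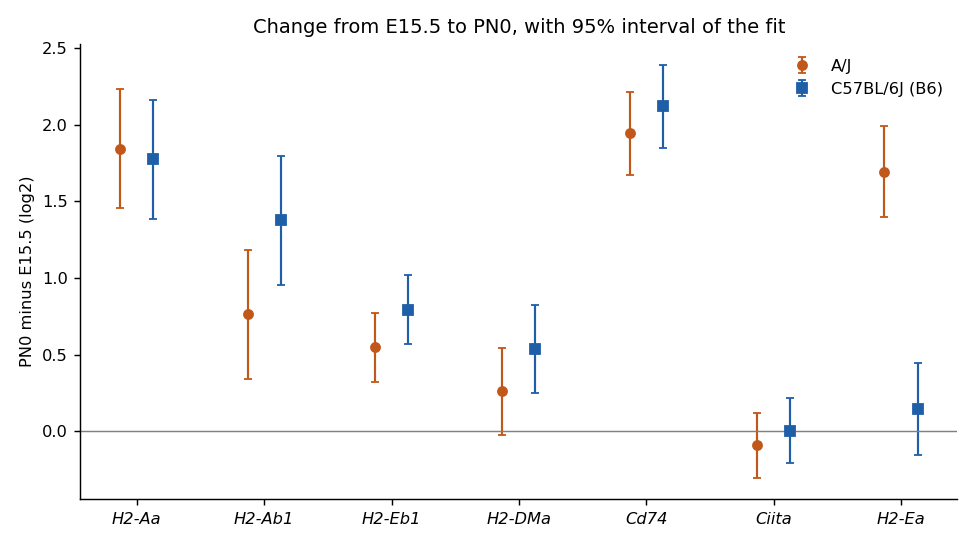
Difference between PN0 and E15.5 on the log2 scale (y axis) for each measured member and for H2-Ea (x axis), in A/J (orange circles) and B6 (blue squares), with the 95% interval of the limma fit as bars. Cd74 and H2-Aa lie between 1.77 and 2.12 in both strains, and the intervals of Ciita include 0 in both.

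Over all times of a strain, 3 of the 6 members, H2-Aa, H2-Ab1 and Cd74, varied in A/J as in B6, where varied means that the F test of limma reached an adjusted p below 0.01 and that the highest and lowest group means lay at least 2-fold apart. Across all probe sets 17.8% passed in A/J and 14.4% in B6. The range between group means was 4.04-fold in A/J and 4.35-fold in B6 for Cd74, 3.59-fold and 3.42-fold for H2-Aa, and 2.46-fold and 2.60-fold for H2-Ab1. H2-Eb1 passed the p but not the fold, with 1.48-fold in A/J and 1.73-fold in B6. H2-DMa did so in B6 only (adjusted p = 0.0053, 1.45-fold).

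The last step up to PN0 was read within each strain. From E18.5 to PN0 in B6, 3 of 6 members rose, against 12.5% of all probe sets higher and 26.9% called in either direction: H2-Ab1 by 0.73, H2-Aa by 0.70 and Cd74 by 0.53 (adjusted p = 0.0074, 0.0057 and 0.0029). From E20.5 to PN0 in A/J, limma called 0 of 6, against 20.1%, and 1 member, H2-Ab1, had an unadjusted p under 0.05. The intervals before PN0 differ between the strains as given above, so these steps were not set against each other. Without B6 E18.5 replicate 2 the B6 count fell from 3 to 1, Cd74, and H2-Ab1 was called in A/J once any 1 of E16.5 replicate 1, E18.5 replicate 1, E18.5 replicate 3 or E20.5 replicate 1 was left out.

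The order of the group means for Cd74 followed time more than strain. B6 PN0 was highest at 7.93 and did not overlap its neighbor, A/J E20.5. The means of A/J E20.5, A/J PN0, A/J E19.5, B6 E18.5 and A/J E18.5 came next, from 7.60 to 7.19, and each overlapped the next. E17.5, E16.5 and E15.5 followed in that order, with the strains overlapping at each time and no overlap between neighboring times. H2-Aa had B6 PN0 (6.99) and A/J PN0 (6.78) on top, and the only neighbors in its order without overlap were A/J E18.5 and A/J E17.5. For H2-Ab1 and H2-Eb1, B6 PN0 stood above all others without overlap (7.61 and 7.23), and all other neighbors overlapped. All neighbors overlapped in the orders of H2-DMa and Ciita.

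The strain comparison asked whether the genes stood at different levels in A/J and B6 at the same gestational day. Over the 4 shared fetal times, 3 of 6 members were higher in B6, against 11.3% of all probe sets, and none was lower: H2-Ab1 by 0.33 ± 0.10 (SE), H2-Eb1 by 0.29 ± 0.05 and Cd74 by 0.18 ± 0.07 (adjusted p = 0.011, 1.2e-04 and 0.030). The call for Cd74 was lost in 8 of 36 fits that each left out 1 replicate (adjusted p up to 0.075): A/J E15.5 replicate 3, A/J E16.5 replicate 2 or 3, A/J E18.5 replicate 2 or 3, B6 E15.5 replicate 2, B6 E16.5 replicate 2 or B6 E18.5 replicate 3. H2-Aa and H2-DMa differed by 0.11 each and Ciita by 0.02 (95% interval -0.09 to 0.13), and none of these was called. A difference between strains in an H2 gene can also come from sequence differences under the probes, which was not tested.

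**Figure D3:**
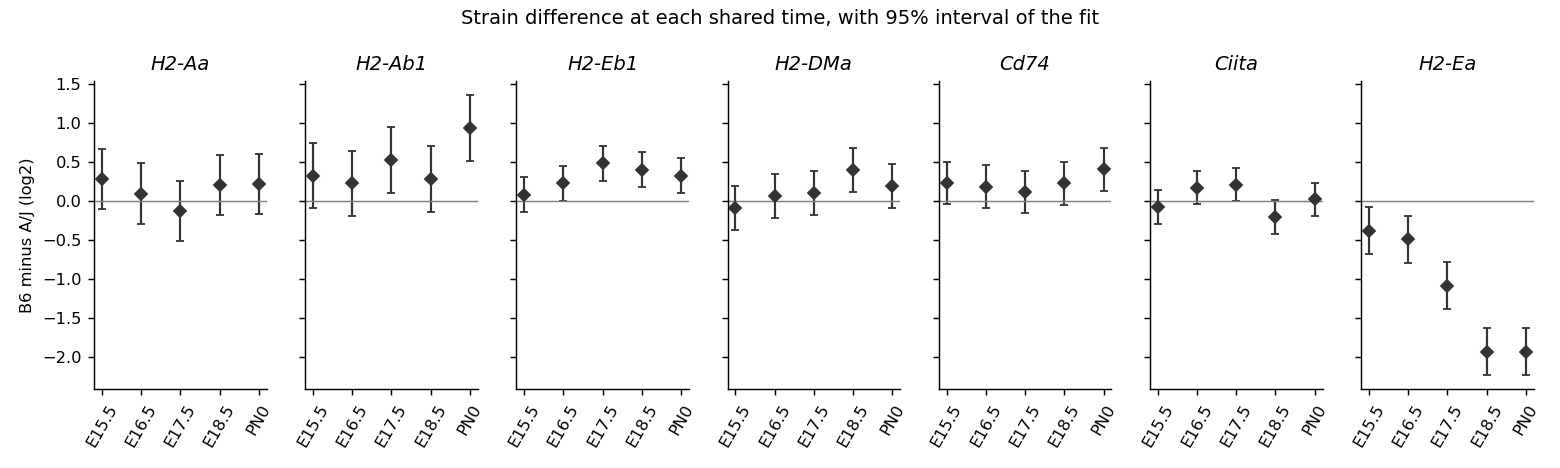
Difference between B6 and A/J on the log2 scale (y axis, B6 minus A/J) at each shared time (x axis) for the measured members and H2-Ea, with the 95% interval of the limma fit as bars. H2-Ab1 reaches 0.93 at PN0, whereas H2-Ea goes from -0.39 at E15.5 to -1.94 at E18.5 and PN0.

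By time, limma called 0 of 6 members higher in B6 at E15.5 (1.31% of all probe sets) and 0 of 6 at E16.5 (3.26%), and the counts at an unadjusted p under 0.05 were 0 and 1 (H2-Eb1). H2-Eb1 alone was called on the next day, E17.5, 1 of 6 (4.14%), by 0.48 (adjusted p = 0.0047). At E18.5, 2 of 6 were called (4.08%), H2-Eb1 by 0.40 and H2-DMa by 0.40 (adjusted p = 0.0067 and 0.030). The median over all probe sets was shifted by -0.13 at E18.5, so both differences stood further from the middle of the array than from 0. H2-DMa rested on few arrays: the B6 replicates were 6.10, 5.72 and 6.15 and those of A/J 5.52, 5.99 and 5.27, which overlap. Its call was lost without B6 replicate 1 or 3, without A/J replicate 1 or 3, and with array 2b left out, whereas H2-Eb1 was kept in each of these fits.

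At PN0, 3 of 6 members were higher in B6 (6.71% of all probe sets). The B6 pups were then about a day younger in gestational age than the A/J pups, so strain and age cannot be told apart at PN0. H2-Ab1 differed most, by 0.93 ± 0.21 (SE, adjusted p = 0.0013). Cd74 was higher by 0.40 (adjusted p = 0.031) and H2-Eb1 by 0.32 (adjusted p = 0.037), and in all 3 genes the strains did not overlap at PN0. The calls of Cd74 and H2-Eb1 were both lost when A/J PN0 replicate 1, A/J PN0 replicate 3 or B6 PN0 replicate 2 was left out, and H2-Ab1 was then the only member called. That of Cd74 was also lost without B6 PN0 replicate 1 (adjusted p = 0.10). The call of H2-Eb1 was also lost without A/J PN0 replicate 2 or B6 PN0 replicate 3 (adjusted p = 0.051 and 0.050), with only the compared groups in the fit (adjusted p = 0.064) and with all probe sets tested (0.053). H2-Aa was higher by 0.21 (95% interval -0.18 to 0.60), H2-DMa by 0.18 and Ciita by 0.02, none of them called.

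The change from E15.5 to PN0 was also compared between the strains directly. That interval was about a day longer in A/J, so strain and interval cannot be told apart in it. Limma called 0 of 6 members for this difference of changes, against 5.94% of all probe sets in either direction, and 1, H2-Ab1, had an unadjusted p under 0.05. H2-Ab1 changed by 0.61 more in B6 than in A/J (95% interval 0.02 to 1.21, adjusted p = 0.24), H2-DMa by 0.28 and H2-Eb1 by 0.25. The earlier call of H2-Eb1 in B6 than in A/J was likewise not backed by a called difference of changes. It was 0.40 at E17.5 (limma, unadjusted p = 0.014, adjusted p = 0.24). From E15.5 to E18.5, an interval equal in both strains, limma called 0 of 6 members, against 6.32% of all probe sets. H2-DMa (0.49) and H2-Eb1 (0.32) then had an unadjusted p under 0.05. On the day before delivery, B6 at E18.5 against A/J at E19.5, limma called 0 of 6 members (9.94% of all probe sets in either direction) and 0 had an unadjusted p under 0.05. Cd74 stood at 7.41 ± 0.17 (SD, n = 3) in B6 and 7.49 ± 0.23 in A/J, and H2-Ab1 at 6.88 ± 0.36 and 7.04 ± 0.30.

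To set the H2 genes beside a class II gene outside the MHC, the log2 signal of Cd74 was subtracted from that of each member in the same replicate and the strains were compared over the 4 fetal times, with strain labels exchanged within each time in all 160000 ways (two-sided exact permutation test). Relative to Cd74, the B6 minus A/J difference was 0.15 for H2-Ab1 (exact p = 0.11) and 0.11 for H2-Eb1 (p = 0.22). It was -0.07 for H2-Aa (exact p = 0.34), -0.07 for H2-DMa (p = 0.53) and -0.16 for Ciita (p = 0.085). None passed 0.05, which does not show that they moved with Cd74, and the sign for H2-Ab1 held at all 4 fetal times. The difference passed for H2-Ab1 without A/J E16.5 replicate 1 (0.20, exact p = 0.026) and for Ciita without A/J E15.5 replicate 2 (-0.21, p = 0.035) or A/J E17.5 replicate 1 (-0.19, p = 0.030). With PN0 added, where B6 pups were about a day younger, the differences were 0.23 for H2-Ab1 (exact p = 0.013) and -0.21 for Ciita (p = 0.012). Against Ciita in place of Cd74, H2-Ab1 was higher in B6 by 0.31 (exact p = 0.015) and H2-Eb1 by 0.27 (p = 0.0013), and H2-Aa by 0.088 (p = 0.41) and H2-DMa by 0.094 (p = 0.38).

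H2-Ea, the α chain that pairs with H2-Eb1, is not one of the members and was singled out after its values had been seen. The H2 haplotype of B6 is known to carry a deletion in this gene and to make no I-E molecule, and RefSeq, whose reference is B6, lists H2-Ea as a transcribed pseudogene. In A/J its replicates rose from 5.66, 5.82 and 5.71 at E15.5 to 7.62, 6.92 and 7.17 at E18.5 and 7.06, 7.61 and 7.60 at PN0. In B6 they were 5.34, 5.20 and 5.49 at E15.5, 5.14, 5.47 and 5.29 at E18.5, and 5.63, 5.25 and 5.58 at PN0. The change to PN0 was 1.69 ± 0.15 (SE) in A/J (adjusted p = 1.5e-11) and 0.14 ± 0.15 in B6 (adjusted p = 0.45), and every A/J replicate from E15.5 on lay above every B6 replicate of any time. The B6 minus A/J difference was called from E16.5 on, at -0.50, then -1.09 a day later, and -1.94 at both E18.5 and PN0. The β chain H2-Eb1 thus rose in B6 while the signal of its partner did not, and how far the B6 signal of H2-Ea is background was not tested. Relative to Cd74, H2-Ea was lower in B6 over the fetal times, with a difference of -1.16 (exact permutation p = 1.25e-05, the smallest that the permutations can give).

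Among the other genes of class II presentation and its control, 20 of the 21 listed were measured. At PN0, 12 were higher and 4 lower than at E15.5 in A/J, and 9 were higher and 5 lower in B6. These counts stand against 25.2% higher and 25.8% lower of all probe sets in A/J, and 24.4% and 26.6% in B6. Enzymes that prepare proteins in endosomes were among those that rose: Ctss (cathepsin S, a protease) gained 2.66 in A/J and 2.14 in B6, Ifi30 (the thiol reductase GILT) 1.45 and 1.74, and Ctsl (the protease cathepsin L) 1.12 and 1.23. Of the 7 genes of the promoter-binding factors RFX, CREB and NF-Y, 4 fell in A/J and 5 in B6. Nfyb, a subunit of NF-Y, was at -1.38 in A/J and -1.09 in B6. Another subunit, Nfyc, rose by 0.21 in each strain (adjusted p = 0.046 in both), and Rfxap was not called in either. The median change of the list was 0.35 in A/J and 0.18 in B6.

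Class I presentation and interferon-γ genes rose as well. Among all probe sets 25.2% rose and 25.8% fell in A/J, and 24.4% and 26.6% in B6. Of 12 measured class I genes of 15 listed, A/J had 8 that rose and 2 that fell and B6 had 9 and 2, with Tapbp (tapasin) at 1.38 and 1.36, B2m (β2-microglobulin) at 1.34 and 0.92, the immunoproteasome gene Psmb8 at 1.01 and 0.85, and the peptide transporter gene Tap2 at 0.97 and 0.87. Interferon-γ is the chief inducer of Ciita. Of 11 measured genes of its signaling and targets of 14 listed, 8 rose in each strain and 1 fell in A/J. The receptor genes Ifngr1 (1.82 and 1.92) and Ifngr2 (0.87 and 1.08) and the GTPase genes Irgm1 (2.0 and 1.57) and Gbp3 (1.29 and 1.55) changed most. Ifng itself differed by -0.02 in A/J and 0.21 in B6, neither called (adjusted p = 0.89 and 0.11). The median change of the class I list was 0.74 in A/J and 0.57 in B6, and that of the interferon-γ list 0.87 and 0.72.

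**Figure D4:**
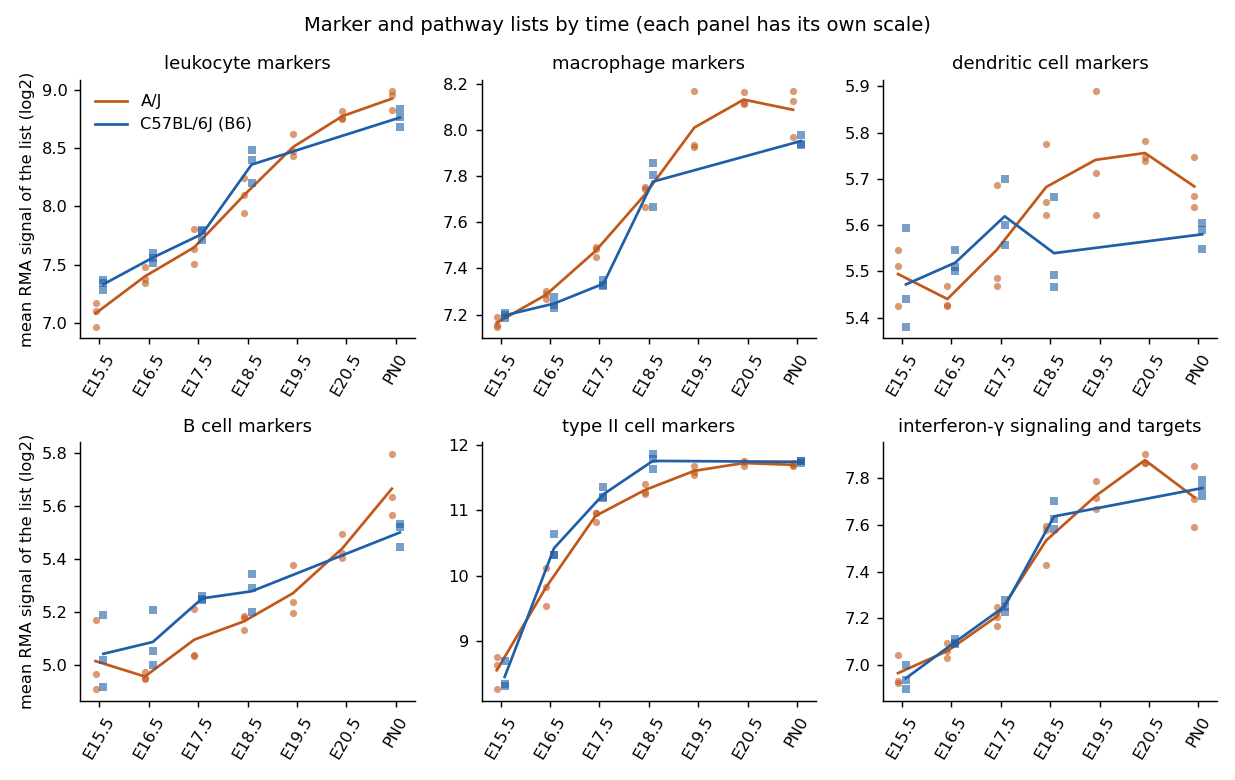
Mean RMA signal on the log2 scale over the measured genes of each list (y axis, a scale of its own in each panel) against time (x axis) in A/J (orange circles) and B6 (blue squares). Points are replicates and lines join the means of 3. Leukocyte, macrophage, B cell and type II cell markers climb toward birth. The dendritic cell markers lie between 5.38 and 5.89, and their A/J mean goes from 5.44 at E16.5 to 5.76 at E20.5.

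Markers of leukocytes, macrophages, B cells and type II cells moved with time as well. Of 13 dendritic cell markers, however, 7 in A/J and 11 in B6 were not called. The counts of all these lists from E15.5 to PN0 stand against 25.2% higher and 25.8% lower of all probe sets in A/J, and 24.4% and 26.6% in B6. The mean signal of the 6 markers of all leukocytes ranged over replicates from 6.97 to 7.18 at E15.5 and from 8.83 to 8.99 at PN0 in A/J, and from 7.28 to 7.37 and from 8.68 to 8.84 in B6, and 6 of 6 rose in each strain, led by Cd53 (2.32 and 2.16) and Ptprc (2.40 and 1.68). Of 14 macrophage markers, A/J had 12 that rose, and B6 had 9 that rose and 1 that fell, and their mean went from 7.15 to 7.19 at E15.5 up to 7.97 to 8.17 at PN0 in A/J and from 7.19 to 7.21 up to 7.94 to 7.98 in B6. Lyz2, which type II cells also express, rose most (3.59 and 3.36). Of 8 measured B cell markers of 9, 6 in A/J and 5 in B6 rose, with Cd79a at 1.39 and 0.72. Of 13 dendritic cell markers, A/J had 5 that rose and 1 that fell and B6 had 2 that rose, Irf8 (1.03 and 0.53) and Itgax (0.81 and 0.46) in both, while the dendritic growth factor receptor gene Flt3 differed by -0.003 and -0.03, not called. Of 8 type II cell markers, 7 rose and 1, Etv5, fell in each strain, and Slc34a2 rose by 5.83 and 6.06. Their part in the change of the class II genes was not tested.

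Between the strains, the marker and pathway lists differed in their counts. Over the fetal times, 5 of 6 leukocyte markers and 7 of 8 type II cell markers were higher in B6, as were H2-Ab1, H2-Eb1 and Cd74, against 11.3% higher and 27.2% lower of all probe sets. Of 14 macrophage markers 2 were higher and 4 lower, of 8 B cell markers 2 were higher and 0 lower, and of 13 dendritic cell markers 0 were higher and 1 lower. Of 13 thymus markers 4 were higher and 0 lower, and of 5 liver markers 1 was higher. Of the 20 other class II presentation and control genes, 2 were higher and 8 lower. Class I presentation had 6 higher and 0 lower of 12, and the interferon-γ list 2 higher and 0 lower of 11. Their part in the strain differences was not tested. At PN0 the differences of H2-Ab1 and Cd74 were largest of the shared times. Limma then called 0 leukocyte, 0 macrophage, 0 dendritic cell and 0 B cell markers higher in B6, against 6.71% of all probe sets. Lower in B6 were 1 of 6, 4 of 14, 3 of 13 and 0 of 8 of these, against 13.2% of all probe sets, among them Csf1r (-0.35) and Mrc1 (-0.53) of the macrophage list and Irf8 (-0.30) of the dendritic list. Of 8 type II cell markers, 1 was higher. Over time, of 13 thymus markers, 3 were called from E15.5 to PN0 in A/J (1 higher, 2 lower) and 1 in B6 (lower). In each strain 51% of all probe sets were called in either direction. Of 5 liver markers none was called in either strain, with the single high libraries at E15.5 given above. Of 6 esophagus and upper airway markers 1 rose in each strain (Krt14), and of 5 heart markers 4 rose in each. The mean of these 6 airway markers was uneven among replicates of both strains. In A/J it ran from 5.84 to 7.43 at E19.5, 5.85 to 7.40 at E20.5 and 5.87 to 7.48 at PN0. In B6 it ran from 6.12 to 7.45 at E17.5. At E18.5 it was 7.17 to 7.40 in A/J and 5.71 to 6.38 in B6. No fit left libraries out by these markers, and their part in the class II values was not tested. All 5 endothelial markers rose in A/J and 4 did in B6.

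The genes whose course was most like that of Cd74 were not class II genes. Over the 36 replicates, the highest Pearson r to Cd74 among 19937 other genes belonged to Aqp1 (0.98), Plet1, Tspan1, Txnip, Npc2, Ostf1, Npnt and Scnn1a (0.97), among them a water channel and a subunit of the epithelial sodium channel. Of these genes 1220 had an r over 0.85, which the shared time course allows, and the median was 0.05. Among members, r to Cd74 was 0.94 for H2-Aa, 0.83 for H2-Ab1, 0.78 for H2-Eb1, 0.62 for H2-DMa and 0.12 for Ciita. With the group means removed, H2-Aa and H2-Ab1 kept an r of 0.61 each, H2-Eb1 and H2-DMa fell to 0.22 and 0.19, and Ciita had 0.36. The highest among all genes was then 0.70 (Rap2a), followed by Krtap6-1 (0.70), Tmem74 and Cd200r4 (0.68), Lce3f and Abtb2 (0.67), and Grid1 and Septin8 (0.66). H2-Aa and H2-Ab1 ranked 28 and 29 by this measure. The points share arrays and are few, so these values describe the 36 replicates only.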

How the data were processed

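The authors hybridized lung RNA to Affymetrix Mouse Gene 1.0 ST arrays and deposited log2 signals summarized by RMA with Affymetrix Expression Console 1.1, 35556 probe sets on 37 arrays, per the labels. Genes were named from the platform annotation, in which 21789 probe sets had 1 symbol, 1621 several and 12146 none. Array 2b of B6 at E18.5 was averaged with array 2. The correlation of 2b was 0.993 with each of arrays 1, 2 and 3, and that of array 2 was 0.988 with arrays 1 and 3. A mean for each of the 12 groups was fitted to the 36 replicates with limma 3.58.1 (lmFit and eBayes, R 4.3.3), with Benjamini-Hochberg adjustment over all probe sets with 1 symbol and calls at an adjusted p under 0.05. The fit was tested on simulated data. Figures were drawn with matplotlib 3.10.9.

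The members and the gene lists were chosen with earlier results of these data known. Text names all members, up to 4 genes of each list with the largest mean absolute change from E15.5 to PN0, and the 8 genes most correlated with Cd74 over replicates and within groups. Other genes named were chosen after their values were seen. Promoters are RefSeq's (GRCm38.p6). H2-DMb1, whose probe set is shared with H2-DMb2, and the listed genes without a probe set of 1 symbol in the table used here are not analysed here. Alternatives covered scaling, probe set filters, eBayes settings, array 2b, thresholds, two-way ANOVA, a replicate block, libraries high in liver markers and each replicate left out.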

Additional observations from a re-analysis of the deposited data

Results flagged for a closer look

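The change of H2-Ea differed between the strains in the test of the difference itself. From E15.5 to E18.5, H2-Ea changed by 1.51 in A/J and -0.05 in B6 on the log2 scale, a B6 minus A/J difference of -1.55 (limma, adjusted p = 3.6e-05), and from E15.5 to PN0 by 1.69 and 0.14, a difference of -1.55 (adjusted p = 2.0e-05). In all 36 fits that each left out 1 replicate, the second difference stayed between -1.73 and -1.43. Whether probe sequence contributes was not tested.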

How the results depend on the processing

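With 3 litters a group, the 95% intervals of the fit at 1 time extended to each side by about the size of many strain differences. H2-Ab1 and H2-Aa varied most among litters (residual SD 0.28 and 0.25 on the log2 scale). No member had a second probe set, so that alternative was not run. The counts of members higher at PN0 than at E15.5 (A/J 4, B6 5) kept to those values in all fits that left out 1 replicate. With dim probe sets left out, only 3 members remained (H2-Ab1, H2-Eb1 and Cd74), and the counts were 3 for B6 at PN0 against E15.5, 1 for the strains at E18.5 and 1, H2-Ab1, for A/J from E20.5 to PN0. The E18.5 count was also 1, H2-Eb1, with only the groups compared in the fit, with array 2b left out and with 2b as a replicate of its own. Requiring a 1.5-fold difference gave 0 at E18.5, 1 at PN0 (H2-Ab1) and 0 over the fetal times, where the methods' two-way ANOVA gave 0 at its own threshold and 2 after Benjamini-Hochberg. Leaving out 1 replicate gave 1 to 2 members for the strains at E18.5, 1 to 3 at PN0, 1 to 3 for B6 from E18.5 to PN0 and 0 to 1 for A/J from E20.5 to PN0.

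The title numbers did not pair the replicates: deviations from group means correlated at a median of -0.02 between same-numbered samples, with 30 of 198 pairs over 0.1. A fit with the replicate block gave 4, 5, 2, 3 and 3 members for A/J and B6 at PN0 against E15.5 and for the strains at E18.5, at PN0 and over the fetal times, and it changed no call of a member.

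Values of Ciita near 0 changed sign. Its change to PN0 in B6 was -0.052 with the 3 libraries high in liver markers left out, -0.01 with arrays centred on their median and -0.056 after quantile normalization, which also gave strain differences of -0.034 at PN0 and -7.7e-04 over the fetal times. Leaving out 1 replicate gave -0.16 to 0.025 (A/J to PN0), -0.052 to 0.068 (B6 to PN0), -0.10 to 0.083 (strains at PN0), -0.0033 to 0.045 (strains, fetal) and -0.022 to 0.17 (difference of changes), and -0.22 to 0.028 for the difference of changes of H2-Aa. The cause was not tested. Against Cd74, quantile normalization gave -0.20 for Ciita (exact p = 0.034), and PN0 added gave 0.23 for H2-Ab1 and -0.21 for Ciita. Against Ciita, H2-Aa was at 0.088, H2-Ab1 at 0.31, H2-Eb1 at 0.27 and H2-DMa at 0.094. Against the mean of B2m, Tap1 and Psmb8, H2-Aa was at -0.22 (exact p = 0.011) and H2-Eb1 at -0.033 (p = 0.69). H2-DMa was at -0.21 (exact p = 0.046) and Ciita at -0.31 (p = 0.0013). The direction for H2-Aa, H2-Eb1 and H2-DMa thus depended on the reference gene. Leaving out 1 replicate gave 0.11 to 0.20 for H2-Ab1 and -0.21 to -0.13 for Ciita. A limma test of all probe sets relative to Cd74, chosen after seeing the data, passed H2-Ea alone of these.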
